A study of Mus musculus with 32 samples.

Results

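Malat1, Neat1, Meg3, Rian, Mirg, Miat, Firre and Tug1 are long noncoding RNAs known for staying in the nucleus, and they were followed through knockdown of the SR proteins SRSF1 to SRSF7. These are splicing factors, and the study proposes that SR proteins also act as adaptors of mRNA export. Its evidence was strongest for SRSF3 and SRSF7, and for SRSF2 it proposes only an indirect part in export. These 8 genes were taken by symbol from the 38201 genes of the tables, and all 8 passed the filter on low values in both fractions. All 8 were also found by gene ID among the exon bins, the non-overlapping pieces into which the exons of a gene are cut for counting, with 151 bins of 354841. The cells were of the P19 embryonal carcinoma cell line, which is mouse and pluripotent. For 36 h they were exposed to esiRNA (short interfering RNA prepared with an endoribonuclease) directed at 1 of the 7 SR proteins or, in the mock transfections that served as controls, at GFP. The knockdowns were transient and left part of each targeted mRNA, as given below. Poly(A)+ RNA was sequenced from whole cells and from the cytoplasm, with replicates A and B in each of the 8 groups (7 knockdowns and the GFP control), which makes 32 libraries. The replicates are biological according to the study's methods, and the labels give only their letters. The question put to these RNAs here is whether their levels, their small cytoplasmic share and their exon use moved when an SR protein was limiting.

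Most poly(A)+ RNA leaves the nucleus after splicing, whereas some long noncoding RNAs are held there by binding proteins, by chromatin or by nuclear bodies, the protein-rich compartments that form without a membrane. *Malat1* concentrates in nuclear speckles, where splicing factors gather, and *Neat1* is the scaffold of paraspeckles. *Miat* forms nuclear domains of its own. *Meg3*, *Rian* and *Mirg* are transcribed in tandem from the maternal copy of the imprinted Dlk1-Dio3 region, which also encodes many miRNAs and small nucleolar RNAs. *Firre* acts in nuclear organization from the X chromosome, and *Tug1* is a widely expressed RNA whose transcripts are often found with introns left in place.

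The genes lie on 5 chromosomes in mm10, the build of the exon bins. *Malat1* (ENSMUSG00000092341, chr19:5795690-5802672, minus strand) has 16 bins and its neighbor *Neat1* (ENSMUSG00000092274, chr19:5824708-5845478, minus strand) has 13. *Meg3* (ENSMUSG00000021268, chr12:109541001-109571726), *Rian* (ENSMUSG00000097451, chr12:109603945-109661709) and *Mirg* (ENSMUSG00000097391, chr12:109734981-109749455) follow each other on the plus strand, with 39, 35 and 18 bins. *Miat* (ENSMUSG00000097767, chr5:112213228-112228948, minus strand) and *Tug1* (ENSMUSG00000056579, chr11:3639794-3648812, minus strand) have 7 bins each, and *Firre* (ENSMUSG00000085396, chrX:50555744-50635321, minus strand) has 16. The bins of *Meg3* and *Rian* are each shared with 2 other gene IDs and those of *Mirg* with 4, so reads of these overlapping genes cannot be told apart there. The sources used here do not say whether the counting used strand.

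The miRNAs of the Dlk1-Dio3 region show where the noncoding RNAs serve as host transcripts. RefSeq (GRCm38.p6, the same assembly as mm10) places 28 mature miRNAs on the same strand within the spans of *Meg3* (3), *Rian* (6) and *Mirg* (19). Of these, 10 lie wholly inside an exon bin, 3 in *Meg3* and 7 in *Mirg*, and none of the 6 within *Rian* does. The libraries hold poly(A)+ RNA, so mature miRNAs were not measured, and the sequences below mark positions on the host RNAs. Capitals mark the seed, bases 2 to 8, which pairs with targets. The first 3 lie in *Meg3* bins whose use is described further on, mmu-miR-1906 in E012 (chr12:109544588-109544609) and the mmu-miR-770 pair in E034 (chr12:109563710-109563765, from the start of the 5p to the end of the 3p sequence). The next 2 are from *Mirg* bins E005 and E015. The last pair, from spans of *Mirg* outside its bins, is shown because it holds the only seed shared among the 28, which have 27 different seeds.
mmu-miR-1906: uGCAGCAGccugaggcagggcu
mmu-miR-770-5p: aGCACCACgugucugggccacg
mmu-miR-770-3p: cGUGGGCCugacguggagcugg
mmu-miR-377-3p: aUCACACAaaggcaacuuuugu
mmu-miR-410-3p: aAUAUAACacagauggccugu
mmu-miR-453: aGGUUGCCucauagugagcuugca
mmu-miR-496a-5p: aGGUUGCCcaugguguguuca

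Exon-bin reads summed to between 38874542 and 59470730 per library in the whole cell and to between 41417374 and 72741730 in the cytoplasm, a 1.53-fold and a 1.76-fold range. In the cytoplasm the B library was the deeper one in 8 of 8 groups (41417374 to 54172448 reads in A and 50271642 to 72741730 in B), and in the whole cell in 4 of 8, so that in the cytoplasm depth went with the letters compared further on, and its part in those differences was not tested. All 13 markers of pluripotent P19 cells were found, and 13 had a mean of at least 10 scaled reads in the whole cell and 12 in the cytoplasm. So had 9 and 8 of 10 markers of neurons, and 5 and 6 of 6 of extraembryonic endoderm. In the cytoplasm, exocrine pancreas markers summed to 661 scaled reads in SRSF4 knockdown A, against a median of 63.1 over the libraries. Hepatocyte markers summed to 195 in SRSF5 knockdown A, against 7.16. Relative to the GFP control, each knockdown left 48.8% to 68.7% of the mRNA it targeted in the whole cell and 37.8% to 77% in the cytoplasm. Markers of smooth muscle and epithelium (6 of 6 found, none at 0) summed to between 3095 and 5923 scaled reads in the A whole-cell libraries and to between 11688 and 17428 in the B libraries, and their part in the letter differences given further on was not tested. Bulk libraries cannot tell fewer cells of a type from less RNA per cell.

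Levels were read from the gene tables, which hold estimated reads per gene scaled by the authors to a common depth (called scaled reads here). In the whole cell *Rian* and *Malat1* had the highest scaled reads, with medians of 11242 and 10796 over 16 libraries, and *Miat* and *Mirg* had the lowest, with 474 and 513. Per transcript length the order was different. In the authors' FPKM, which combine both replicates of a group, *Meg3* stood at 258 in the whole cell of the GFP control and *Malat1* at 182, above *Rian* (108), *Firre* (42.9) and *Tug1* (35.5). *Mirg* (13.2 FPKM) and *Neat1* (11 FPKM) were lower, and *Miat* was lowest at 1.98 FPKM. These are the authors' values for a group with no spread beside them, and the ranges over the 8 groups of *Meg3* (155 to 280 FPKM), *Malat1* (113 to 210 FPKM) and *Rian* (91.7 to 132 FPKM) overlapped in that order, as did those of *Firre* (36.4 to 51.5 FPKM) and *Tug1* (32.4 to 54.7 FPKM) and of *Mirg* (10.2 to 18.8 FPKM) and *Neat1* (6.56 to 18.2 FPKM). In the cytoplasm of the control *Rian* (21.5 FPKM) and *Meg3* (19.3 FPKM) led, and *Malat1* was at 1.65 FPKM, near *Firre* (1.84 FPKM) and *Neat1* (1.49 FPKM).

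*Rian* and *Firre* varied least between whole-cell libraries. *Rian* lay between 8593 and 14162 scaled reads and *Firre* between 877 and 1429, a 1.65-fold and a 1.63-fold range. *Miat* (226 to 990 scaled reads, 4.37-fold) and *Neat1* (325 to 1350 scaled reads, 4.15-fold) varied most. In the cytoplasm the widest range was that of *Malat1*, from 51.4 to 511 scaled reads with a median of 122, which is 9.94-fold. The lowest *Malat1* library was the SRSF4 knockdown B and the highest the SRSF3 knockdown A.

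**Figure D1:**
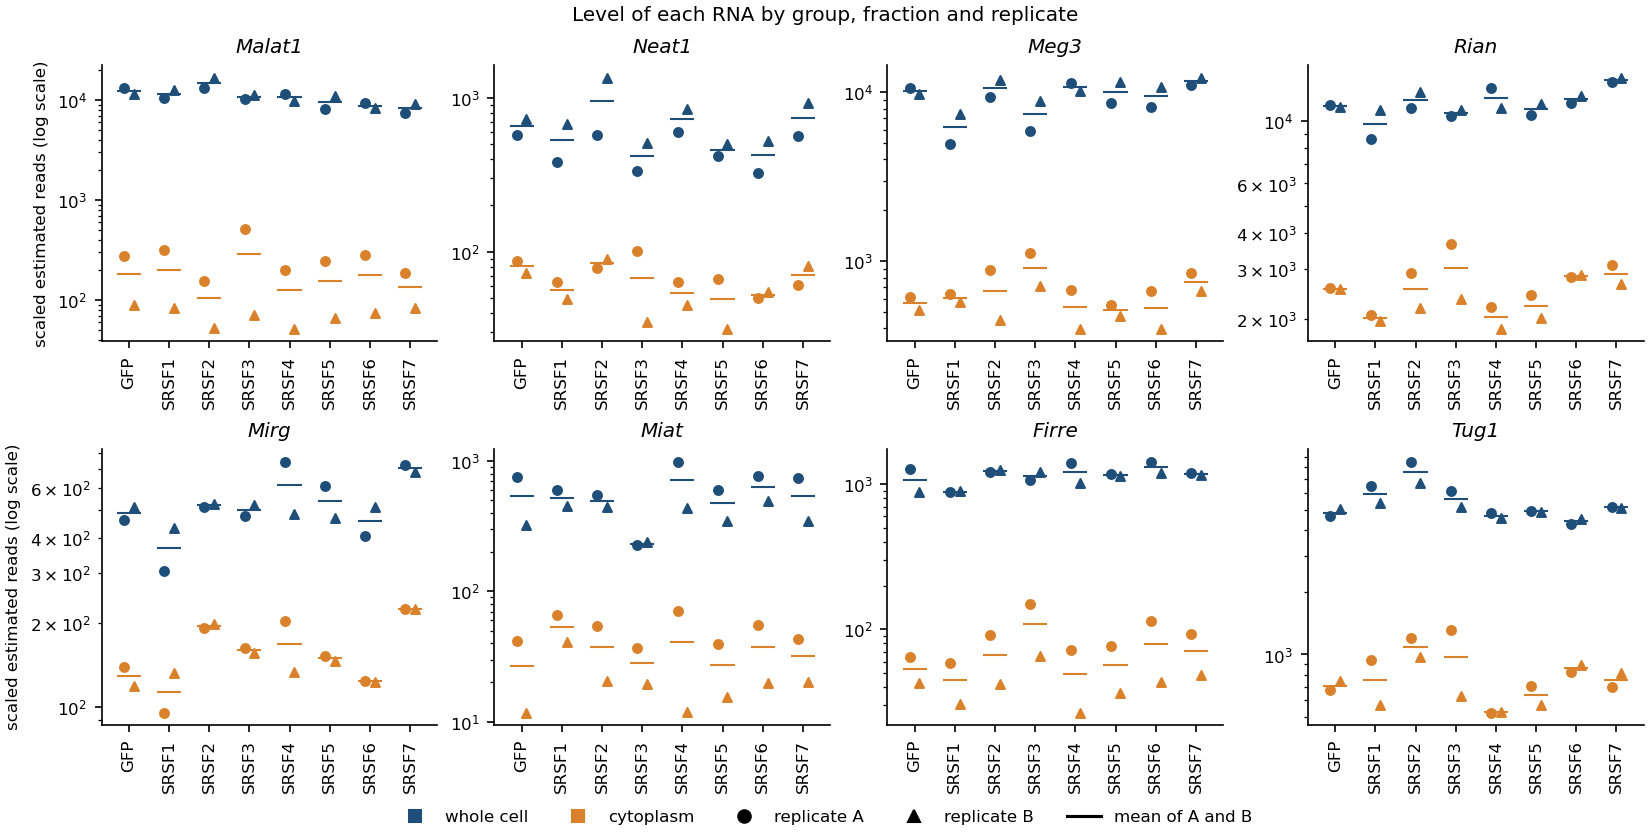
Scaled estimated reads (vertical axis, log scale, a separate range for each RNA) of the 8 RNAs in the GFP control and 7 knockdowns, in the whole cell (blue) and the cytoplasm (orange), where circles are A libraries, triangles are B libraries and bars are means. Cytoplasmic values lie below the whole-cell values in all libraries, and the A circles of *Malat1* in the cytoplasm (155 to 511) lie above all B triangles (51.4 to 89.8).

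All 8 RNAs were depleted from the cytoplasm relative to most genes. The tables of the 2 fractions were scaled separately, so a ratio between them has no absolute meaning and received no test, and it is given here beside the ratio of 17030 genes that passed the filter in both. The median gene stood at 95.1% of its whole-cell value in the cytoplasm (91% to 97.1% over the 16 pairs of libraries of the same group and letter). *Malat1* stood at a median of 1.04%, from 0.322% to 4.94%, and 0.0411% of all genes had a lower ratio in the median pair. *Firre* (5.18%), *Meg3* (6.18%) and *Miat* (6.39%) came next, with 1.39% to 2.5% of all genes below them. *Neat1* was at 10.7% and *Tug1* at 14.3% of the whole-cell value. *Rian* (22.6%) and *Mirg* (30.7%) were highest, with 11.5% and 16.8% of all genes below them.

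The order of neighbors was not always clear of the spread over pairs. The log2 ratios were -6.30 ± 1.14 (SD over 16 pairs) for *Malat1*, -4.24 ± 0.62 for *Firre*, -3.93 ± 0.63 for *Miat*, -3.92 ± 0.65 for *Meg3* and -3.20 ± 0.65 for *Neat1*. *Firre*, *Miat* and *Meg3* therefore lay within each other's spread, while *Malat1* was lower than these by more than its own SD and *Neat1* and *Tug1* differed by less than that of *Neat1*. *Tug1* (-2.81 ± 0.30), *Rian* (-2.22 ± 0.29) and *Mirg* (-1.74 ± 0.20) had narrower spreads, and each step among these 3 exceeded the larger SD of the pair. All 16 ratios of each RNA were below the all-gene median. Among fixed lists, the median ratio over 14 mRNAs known for detained introns, which are spliced late and held in the nucleus, was 23.4%, and over 12 mRNAs of nuclear speckle proteins it was 32.8%. The 15 cytoplasmic mRNAs measured, such as *Actb* and *Gapdh*, had a median of 236%, and 12 other long noncoding RNAs one of 45%.

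**Figure D2:**
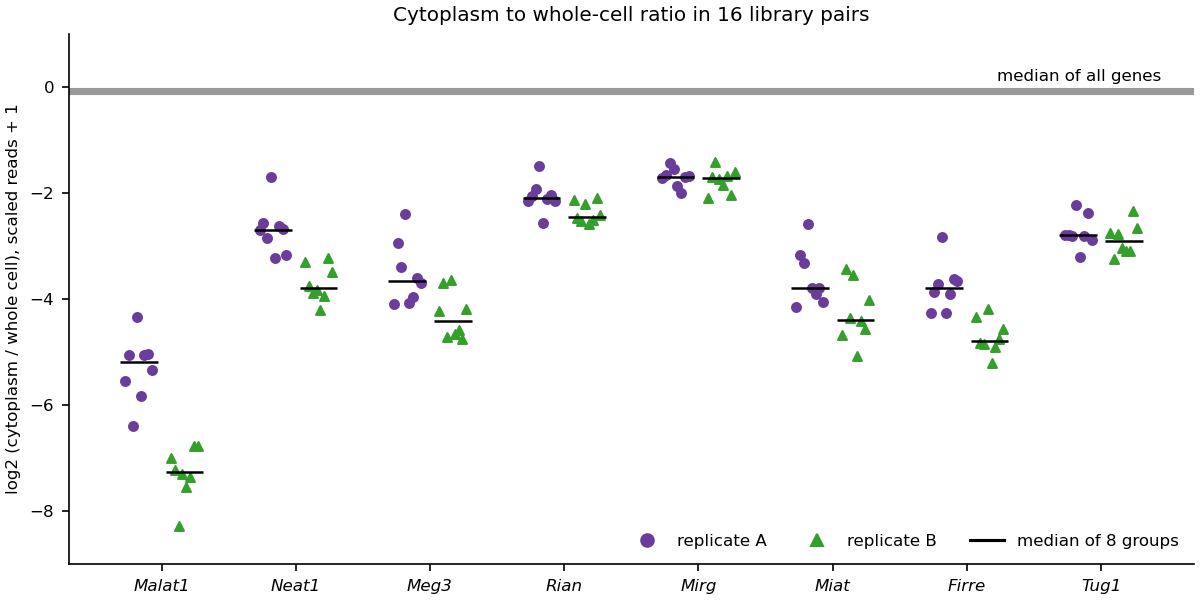
Log2 of the cytoplasm to whole-cell ratio of scaled reads + 1 (vertical axis) for each RNA in 16 pairs of libraries, 8 of replicate A (circles) and 8 of replicate B (triangles), with bars for the median of 8 groups and a gray band for the range of the median over 17030 genes. All points lie below the band, *Malat1* lies lowest, and its A ratios (median 2.72%) and B ratios (median 0.651%) do not overlap.

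*Malat1* and *Neat1*, the RNAs of nuclear speckles and paraspeckles, did not pass in the whole cell with limma without the replicate letter. *Neat1* passed in the SRSF3 knockdown when limma included the letter. For genes, limma alone means here the fit without the letter. The block means the same limma fit with the letter added, unless edgeR is named. Across the 8 RNAs and 7 knockdowns, limma called 0 of 56 changes in the whole cell, against 1.76% of all genes and knockdowns, at an adjusted p below 0.05, with 8 of 56 at an unadjusted p below 0.05. On reads recovered from exon bins, edgeR called 0, and its share of all genes is not given here. On the same reads DESeq2 called 2 (*Miat* after SRSF3 and *Tug1* after SRSF2 knockdown), against 2.9% of all genes and knockdowns. With the replicate letter as a block, 5 of 56 passed, against 7.32% of all genes and knockdowns, and so did 5 with edgeR and the block, against 7.16%. *Neat1* was among these 5, in the SRSF3 knockdown. It stood at 334 and 508 scaled reads (A and B) after SRSF3 knockdown and at 576 and 732 in the GFP control. The knockdown was lower for each letter, and the ranges of the groups did not overlap. The log2 fold change was -0.67 (adjusted p = 0.318 with limma), and the adjusted p was 0.00675 with the block. The log2 fold change was -0.35 without knockdown library A and -0.98 without knockdown library B.

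*Malat1* had its lowest whole-cell mean after SRSF7 knockdown, 8350 ± 1165 scaled reads (SD, n = 2), against 12335 ± 1124 in the control. Its values were 7526 and 9175 against 13129 and 11540, with a log2 fold change of -0.56 (SE 0.17, adjusted p = 0.466, and 0.0654 with the block). After SRSF2 knockdown it stood at 13142 and 16770 scaled reads. *Malat1* thus did not pass in any knockdown with either model, and its mean was below that of the control in 6 of 7 knockdowns, with SRSF2 as the exception.

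*Miat* showed the largest fitted change of the 8 RNAs in the whole cell. After SRSF3 knockdown both libraries were low, at 226 and 238 scaled reads, whereas the control held 753 and 326. The 14 other whole-cell libraries held at least 326 scaled reads, a level that control library B itself had. The log2 fold change was -1.10 (SE 0.48), with an adjusted p of 0.151 without and 0.00235 with the block, and DESeq2 on recovered reads gave 0.0471. Control library A decided much of this size, since without it the log2 fold change was -0.50, and -1.71 without control library B. In the cytoplasm *Miat* was at 36.7 and 19.3 scaled reads after SRSF3 knockdown and at 41.4 and 11.7 in the control, and the groups overlapped. Its highest cytoplasmic mean followed SRSF1 knockdown (65.7 and 40.7 scaled reads, log2 fold change 1.19, adjusted p = 0.764, and 0.0671 with the block).

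Of the imprinted RNAs, *Meg3* was low in whole cells after SRSF1 and SRSF3 knockdown. The control held 10563 and 9758 scaled reads of *Meg3*, the SRSF1 knockdown 4930 and 7446, and the SRSF3 knockdown 5911 and 8913. Both knockdowns were below both control libraries, and in both the B library was nearer to the control. The log2 fold changes were -0.74 (SE 0.24, adjusted p = 0.173) and -0.50 (SE 0.24, adjusted p = 0.189) with limma, and the blocked model gave adjusted p-values of 0.00593 and 0.0201. Without knockdown library A the change after SRSF3 was -0.19 and after SRSF1 -0.44, against -0.80 and -1.04 without knockdown library B.

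In the cytoplasm *Meg3* moved the other way after SRSF3 knockdown. It stood at 1121 and 715 scaled reads against 616 and 517 in the control, with both knockdown libraries above both controls (log2 fold change 0.66, adjusted p = 0.48, and 0.0292 with the block), and the change was 0.34 without knockdown library A and 0.97 without knockdown library B. The difference of the changes in the 2 fractions, which asks whether the cytoplasmic level relative to the whole cell changed, was 1.15 on the log2 scale (SE 0.46). It gave an adjusted p of 1 without and of 0.0322 with the block. Without knockdown library A this difference was 0.53, and without knockdown library B it was 1.78. *Meg3* went from 5.3% of the whole-cell value in the control B pair and 5.84% in the control A pair to 19% (A) and 8.03% (B) after SRSF3 knockdown. For this difference limma called 0 of 56 RNA and knockdown pairs, against 0.000749% of all genes, with 1 at an unadjusted p below 0.05. On recovered reads edgeR and DESeq2 both called 0, and their shares of all genes are not given here. With the block 1 of 56 passed, against 0.102% of all genes and knockdowns.

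*Rian* and *Mirg*, the neighbors of *Meg3*, did not pass in any knockdown in either fraction. *Rian* was at 13708 and 14162 scaled reads in the whole cell after SRSF7 knockdown, above 11323 and 11160 in the control, with a log2 fold change of 0.31 (adjusted p = 0.641, and 0.153 with the block). *Mirg* also had its highest mean after SRSF7 knockdown in both fractions. It stood at 727 and 683 scaled reads in the whole cell against 463 and 513 in the control (log2 fold change 0.53, adjusted p = 0.663), and at 224 and 223 scaled reads in the cytoplasm against 139 and 119 (log2 fold change 0.76). In both fractions these 2 knockdown libraries were above the control libraries. Of 6 other genes of the imprinted region, 2 passed in the whole cell after SRSF3 knockdown, where 11.4% of all genes were called. *Begain* fell (log2 fold change -1.30, adjusted p = 0.0428), and *Wdr25* rose (0.50, adjusted p = 0.0445).

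*Tug1* was high after SRSF2 knockdown. Its whole-cell values were 8524 and 6713 scaled reads against 4639 and 5045 in the control, the highest of the 16 libraries. The log2 fold change was 0.65 (SE 0.13), with an adjusted p of 0.112 with limma, 0.00263 with the block and 0.00238 with DESeq2 on recovered reads. In the cytoplasm *Tug1* was at 1207 and 978 scaled reads after SRSF2 knockdown against 670 and 746 in the control, and the log2 fold change of 0.61 did not pass (adjusted p = 0.193 with the block). The difference between the fractions was -0.03 (SE 0.35). *Tug1* thus had a like fold change in both fractions in that knockdown.

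*Firre* stayed between 877 and 1429 scaled reads in the whole cell and did not pass in any knockdown there. In the cytoplasm it was at 150 and 65.7 scaled reads after SRSF3 knockdown, where the control held 64.4 and 42.9. Both values were above the controls, but knockdown B lay close to control A. The log2 fold change was 0.90 (adjusted p = 0.619, and 0.0231 with the block), and it was 0.32 without knockdown library A and 1.48 without knockdown library B. In the cytoplasm limma called 0 of 56 changes, against 0.0821% of all genes and knockdowns, with 2 at an unadjusted p below 0.05. On recovered reads edgeR and DESeq2 called 0, and their shares of all genes are not given here. The blocked model called 2 of 56, against 3.12% of all genes and knockdowns, *Meg3* and *Firre* after SRSF3 knockdown. With edgeR and the block *Firre* alone passed, against 3.4%. The SRSF3 knockdown moved many genes with the block, 33.2% in the whole cell and 13.9% in the cytoplasm, and 3 of 8 and 2 of 8 of these RNAs were called there, so these shares stood near or not far above the background.

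By knockdown, the median log2 fold change over the 8 RNAs in the whole cell ranged from -0.23 after SRSF1 knockdown, with 6 of 8 below 0, to 0.16 after SRSF2 and 0.16 after SRSF7 knockdown, with 7 of 8 above 0 in each. In the cytoplasm it was highest after SRSF3 knockdown (0.28, 7 of 8 above 0) and lowest after SRSF4 knockdown (-0.31, 6 of 8 below 0). The medians over all genes lay between -0.03 and 0.01. For the cytoplasmic level relative to the whole cell, all 8 RNAs were above 0 after SRSF3 knockdown (median 0.38, and -0.009 over all genes). After SRSF4 knockdown 7 of 8 were below 0 (-0.41, and -0.002 over all genes). In the SRSF3 knockdown all 8 ratios of scaled reads exceeded those of the control in the A pair. In the B pair *Meg3*, *Mirg*, *Miat* and *Firre* were above the control and *Malat1*, *Neat1*, *Rian* and *Tug1* below it. *Srsf3* mRNA was at 7145 scaled reads in whole-cell A against 8695 in the control, and at 4440 against 8161 in B. All 7 comparisons share the GFP libraries, so their values are not independent of each other.

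**Figure D3:**
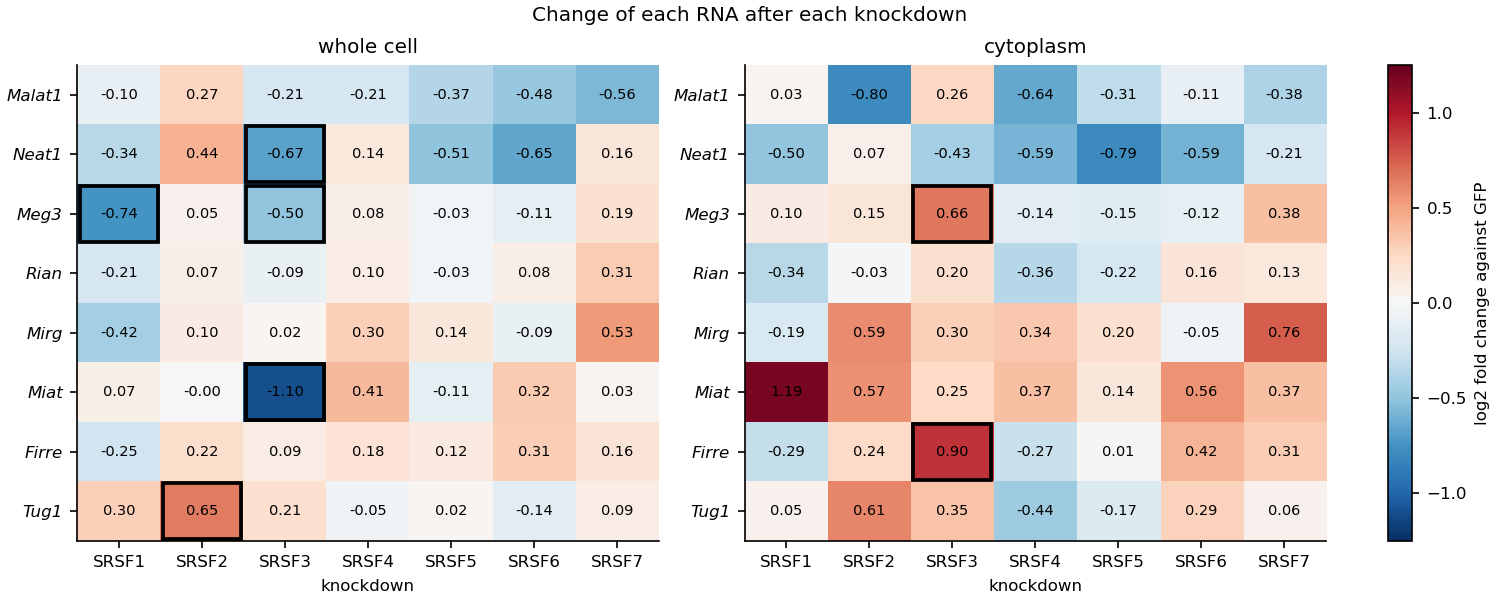
Log2 fold change of each RNA (rows) after each knockdown (columns) against GFP with the whole cell on the left and the cytoplasm on the right, from 2 libraries per group. Black frames mark the 7 changes with an adjusted p below 0.05 in the model with the replicate letter as a block, and none passed in limma without it. *Miat* after SRSF3 knockdown (-1.10) is the deepest blue cell of the whole-cell panel.

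The genes that encode proteins of the same nuclear bodies were compared from lists. Of 17 tested mRNAs of paraspeckle proteins, *Hnrnph3* fell after SRSF1 knockdown in the whole cell (log2 fold change -1.14, adjusted p = 0.0138), and *Rbm14* rose after SRSF3 knockdown (0.90, adjusted p = 0.0352). The median over the 17 was 0.06 and 0.04 in these comparisons, in which 0.804% and 11.4% of all genes were called. With the block 4 of 12 nuclear speckle mRNAs rose in the whole cell in each of the SRSF1, SRSF2 and SRSF3 knockdowns, where 4.61%, 2.59% and 16.1% of all genes rose and the medians over the 12 were 0.21, 0.28 and 0.12 on the log2 scale. Limma made these calls with the block and not without it. Of 16 other long noncoding RNAs tested in the whole cell, *Snhg3* rose (1.84, adjusted p = 0.0337) and *Snhg12* fell (-1.07, adjusted p = 0.008) after SRSF3 knockdown.

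Replicates A and B differed in several of these RNAs, most of all in cytoplasmic *Malat1*. Over the 8 groups, *Malat1* in the cytoplasm ranged from 155 to 511 scaled reads in A (median 261) and from 51.4 to 89.8 in B (median 72.7). Every A library was above every B library, as held for 2.36% of all genes in the cytoplasm, and the A to B ratio had a median of 3.72. In the whole cell *Malat1* did not separate by letter, with 7526 to 13142 scaled reads in A and 8275 to 16770 in B. The fitted difference of A and B was 1.84 on the log2 scale in the cytoplasm (SE 0.14, adjusted p = 1.69e-07) and -0.11 in the whole cell (adjusted p = 0.247). The p-values for letters measure how constant a difference was over the 8 groups. They do not show whether another pair of replicates would differ in the same way.

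*Miat* and *Firre* were also higher in A in the cytoplasm, in all 8 groups, as were 16.6% of all genes. *Miat* had 36.7 to 70.2 scaled reads in A and 11.7 to 40.7 in B, with a log2 difference of 1.36 (SE 0.18, adjusted p = 1.96e-05). *Firre* had 58.9 to 150 scaled reads in A and 26.6 to 65.7 in B, and the log2 difference was 1.06 (adjusted p = 4.92e-06). For both the ranges overlapped, since the groups differ as well, while each A library exceeded the B library of its own group. *Meg3* was higher in A in 8 of 8 groups (0.51, adjusted p = 3.03e-04) and *Rian* in 7 of 8 (0.23, adjusted p = 0.0146). *Neat1* (0.36, adjusted p = 0.109), *Tug1* (0.23, adjusted p = 0.122) and *Mirg* (0.05, adjusted p = 0.714) did not pass. In all 5 of 8 RNAs were called in the cytoplasm, against 51.9% of all genes, and all 5 were higher in A, against 26.2%.

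In the whole cell 3 of 8 RNAs differed by letter, against 39.3% of all genes. *Neat1* was lower in A in all 8 groups, as 12.1% of all genes were, with 325 to 603 scaled reads in A and 499 to 1350 in B (log2 difference -0.65, SE 0.08, adjusted p = 2.16e-05). *Meg3* was lower in A in 6 of 8 groups (-0.28, adjusted p = 0.00859). *Miat* was higher in A in 7 of 8 groups (0.69, adjusted p = 2.42e-04), and the exception was the SRSF3 knockdown, where it was low in both.

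The difference between the fractions itself was tested as an interaction, in a fit that took the libraries of both fractions as independent of each other. It passed for 6 of 8 RNAs, against 32.1% of all genes, and was positive in each of the 6, against 19.1%, so that the cytoplasm of A held more of these RNAs relative to the whole cell than that of B. The values were 1.95 on the log2 scale for *Malat1* (SE 0.16, adjusted p = 4.98e-07), 1.01 for *Neat1* (adjusted p = 0.0012) and 0.93 for *Firre* (adjusted p = 1.74e-05). They were 0.79 for *Meg3*, 0.67 for *Miat* and 0.31 for *Rian* (adjusted p = 9.96e-05, 0.0245 and 0.012). *Mirg* (0.07) and *Tug1* (0.14) did not pass. The ratio of cytoplasm to whole cell was higher in A in 8 of 8 groups for *Malat1*, *Neat1*, *Meg3* and *Firre*. It was higher in A in 7 groups for *Rian* and *Miat*, in 4 for *Mirg* and in 3 for *Tug1*. No share of all genes is given for these counts, which are a description.

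Most of the fixed gene lists moved with the letters in the same direction. The median ratio of cytoplasm to whole cell was higher in A in 8 of 8 groups for detained-intron and nuclear speckle mRNAs. The same held for mRNAs of paraspeckle proteins, of protein partners of these RNAs and of the targeted SR proteins. It was higher in A in 7 groups for the imprinted region, in 2 for the other long noncoding RNAs and in 0 for the cytoplasmic mRNAs. Of 14 mRNAs with detained introns 13 had a positive interaction that passed, with a median of 0.71, among them *Clk1* (1.01), and so did 8 of 12 mRNAs of nuclear speckle proteins, such as *Rbm25* (1.61), against 19.1% of all genes. Of 15 cytoplasmic mRNAs 11 passed with a negative value (median -0.29), against 12.9% of all genes. The median over all genes was 0.00026. Among the 16 other long noncoding RNAs tested 2 were positive and 3 negative. The smooth muscle and epithelial markers went the other way in level, at 4910 to 9721 scaled reads in A and 21061 to 33622 in B in the cytoplasm.

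**Figure D4:**
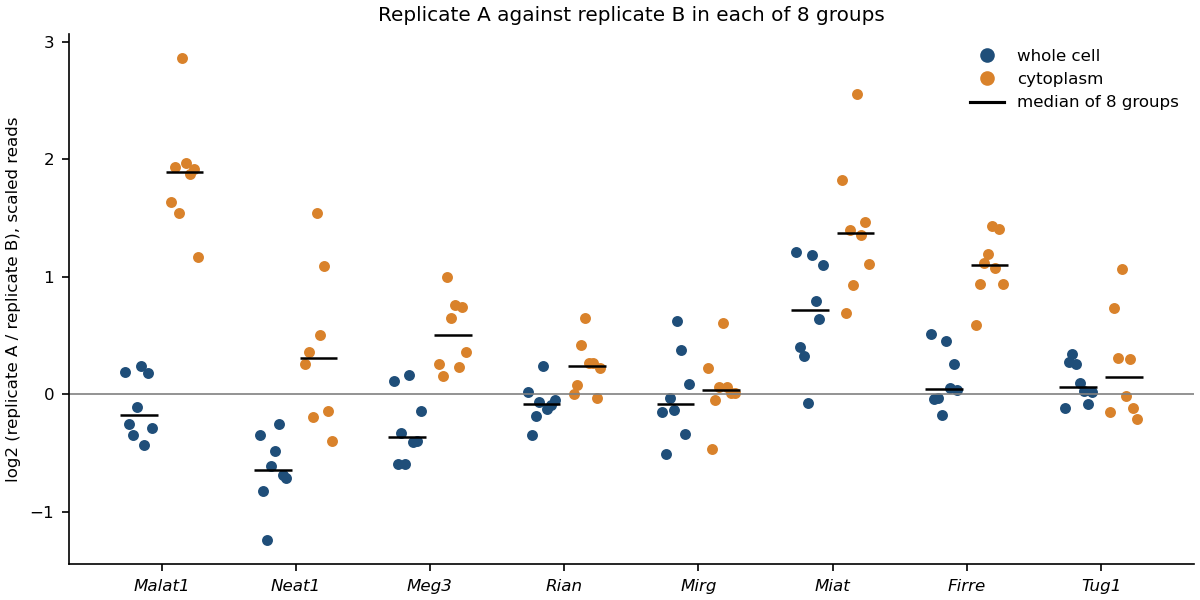
Log2 ratio of replicate A to replicate B in scaled reads (vertical axis) for each RNA in each of 8 groups, in the whole cell (blue) and the cytoplasm (orange), with bars for the median of 8 groups and a line at 0. In the cytoplasm all 8 points of *Malat1*, *Meg3*, *Miat* and *Firre* lie above 0, and in the whole cell all 8 points of *Neat1* lie below 0.

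Exon bins were used to ask which pieces of the RNAs were present. The test compares the change of a bin with that of the other bins of its gene in each knockdown table. In all, 9 bins of these RNAs were called at an adjusted p below 0.1, 5 in the whole cell, against 0.125% of all bins tested there, and 4 in the cytoplasm, against 0.106%. They lie in *Meg3* (7), *Firre* (1) and *Rian* (1), and the bins of 1 RNA share their reads and are not independent of each other. Each table holds 2 knockdown and 2 control libraries, and the calls depended on single libraries. There were 3 calls without knockdown library A, 7 without knockdown library B, 2 without control library A and 1 without control library B, and of the 9 bins 0, 5, 2 and 1 were among them, so that without knockdown library A only other bins were called. Of the 7 *Meg3* bins none was called without control library A, control library B or knockdown library A, where their adjusted p-values were 0.131 or more, and 4 were called without knockdown library B.

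The first exons of *Meg3* held a larger part of its cytoplasmic reads after SRSF1 knockdown. Bin E009 (chr12:109544027-109544307, 281 bases) held 258 and 209 reads after SRSF1 knockdown and 83 and 105 in the control, all in the cytoplasm. Relative to the other *Meg3* bins this was 2.75-fold more (log2 1.46, adjusted p = 0.00451). E007 (chr12:109543700-109543805) and E008 (chr12:109543806-109543849) were 2.95-fold and 2.97-fold higher relative to the other bins (adjusted p = 0.0133 and 0.0155), and E003 (chr12:109541007-109541099) had 34 and 26 reads against 13 and 3 (adjusted p = 0.0799). These calls depended on the weighting of values by level in diffSplice. Without weights E007, E008 and E009 were not called (adjusted p = 0.354, 0.337 and 0.52), while E003 was (adjusted p = 0.0286). With the block E007 and E009 were called after SRSF3 knockdown too (log2 1.37 and 1.21, adjusted p = 0.0157 and 0.00945), in a model that called 18 bins of these RNAs and 0.306% of all bins.

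Bins E003 to E012 of *Meg3*, grouped after their values were seen, held 19.2% and 21.8% of the *Meg3* reads in the cytoplasm of the control. They held 53.4% and 46.5% after SRSF1 knockdown and 34% and 48.7% after SRSF3 knockdown. The SRSF2 (27.7% and 35.1%) and SRSF7 (26.8% and 33.6%) knockdowns were above the control, and the SRSF2 B library was above the SRSF3 A library. The remaining knockdowns lay between 21% and 26.3%. In the whole cell the share of these bins was 18% to 22.9% in all 16 libraries, below the 2 SRSF1 and 2 SRSF3 values of the cytoplasm. The middle exons E013 to E029 held correspondingly less of the cytoplasmic reads, 38.3% and 44% after SRSF1 knockdown against 65.7% and 63% in the control. The 95% Wilson interval of these shares was at most 3.44 points to either side, which covers counting error only.

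Downstream, *Meg3* has an annotated stretch of 12751 bases, bins E030 to E035 (chr12:109558640-109571390), which runs up to the last exon and contains the mmu-miR-770 sequences shown above in E034. In the whole cell of the control it held 6.24% and 5.78% of the *Meg3* reads. After SRSF2 knockdown it held 11.1% and 9.24%, and after SRSF7 knockdown 10% and 8.67%, whereas the SRSF1 knockdown had 4.97% and 4.2%. Single libraries of other knockdowns reached these values, with 8.82% in SRSF4 A, above SRSF7 B, and 3.7% in SRSF3 B, the lowest of all. The share was higher in A than in B in 8 of 8 groups, a count for which no share of all bins is given. Within it E035 (chr12:109563786-109571390) was called after SRSF2 knockdown, with 812 and 848 reads against 502 and 522 in the control (1.82-fold relative to the other bins, adjusted p = 0.0467). E032 (chr12:109559190-109561682, 562 and 750 reads against 330 and 312) and E033 (chr12:109561683-109563691, 266 and 377 against 134 and 168) were called after SRSF7 knockdown, at 1.63-fold and 1.69-fold (adjusted p = 0.0274 and 0.0327). With the block E032 and E033 were called after SRSF2 knockdown as well (adjusted p = 0.0843 and 0.022). In the cytoplasm the stretch held 0.879% to 6.23% of the *Meg3* reads. Over the 16 libraries of each fraction its reads in the cytoplasm were 3.53% of those in the whole cell, against 11.1% for the first exons, 5.93% for the middle exons and 10.1% for the last exon.

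*Rian* E007 (chr12:109634203-109634354, 152 bases), an exon of the 5′ part, was low after SRSF3 knockdown in the whole cell. It held 64 and 106 reads there and 181 and 193 in the control, 2.05-fold less relative to the other *Rian* bins (log2 -1.03, adjusted p = 3.96e-04). Its share of the *Rian* reads was 0.445% and 0.549% after SRSF3 knockdown, below the 0.775% to 1.08% of the 14 other libraries. The bin was called without either control library and without knockdown library B, and its adjusted p was 0.27 without knockdown library A.

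*Firre* E001 (chrX:50555744-50555929, 186 bases), the most 3′ bin of that RNA, was low after SRSF1 knockdown in the whole cell, with 38 and 41 reads against 103 and 135 in the control (2.35-fold less relative to the other bins, adjusted p = 0.0615). Its neighbor E002 belongs to the same end of the RNA. E001 and E002 together held 7.52% and 6.8% of the *Firre* reads after SRSF1 knockdown and 11.2% to 17% in the 14 other libraries, with intervals of at most 1.87 points. The adjusted p of E001 was 0.00317 without control library A, and it was 0.312 without control library B, 1 without knockdown library A and 0.853 without knockdown library B.

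*Tug1* E002 (chr11:3643268-3644771), the bin next to the last exon, was called with the block and not without it, after SRSF2 knockdown in the whole cell (log2 -0.76, adjusted p = 0.0478). There it held 2.27% and 2.99% of the *Tug1* reads, with 3.93% and 4.91% in the control and 6.17% and 6.67% after SRSF7 knockdown. No bin of *Malat1*, *Neat1*, *Miat* or *Mirg* was called in either model.

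**Figure D5:**
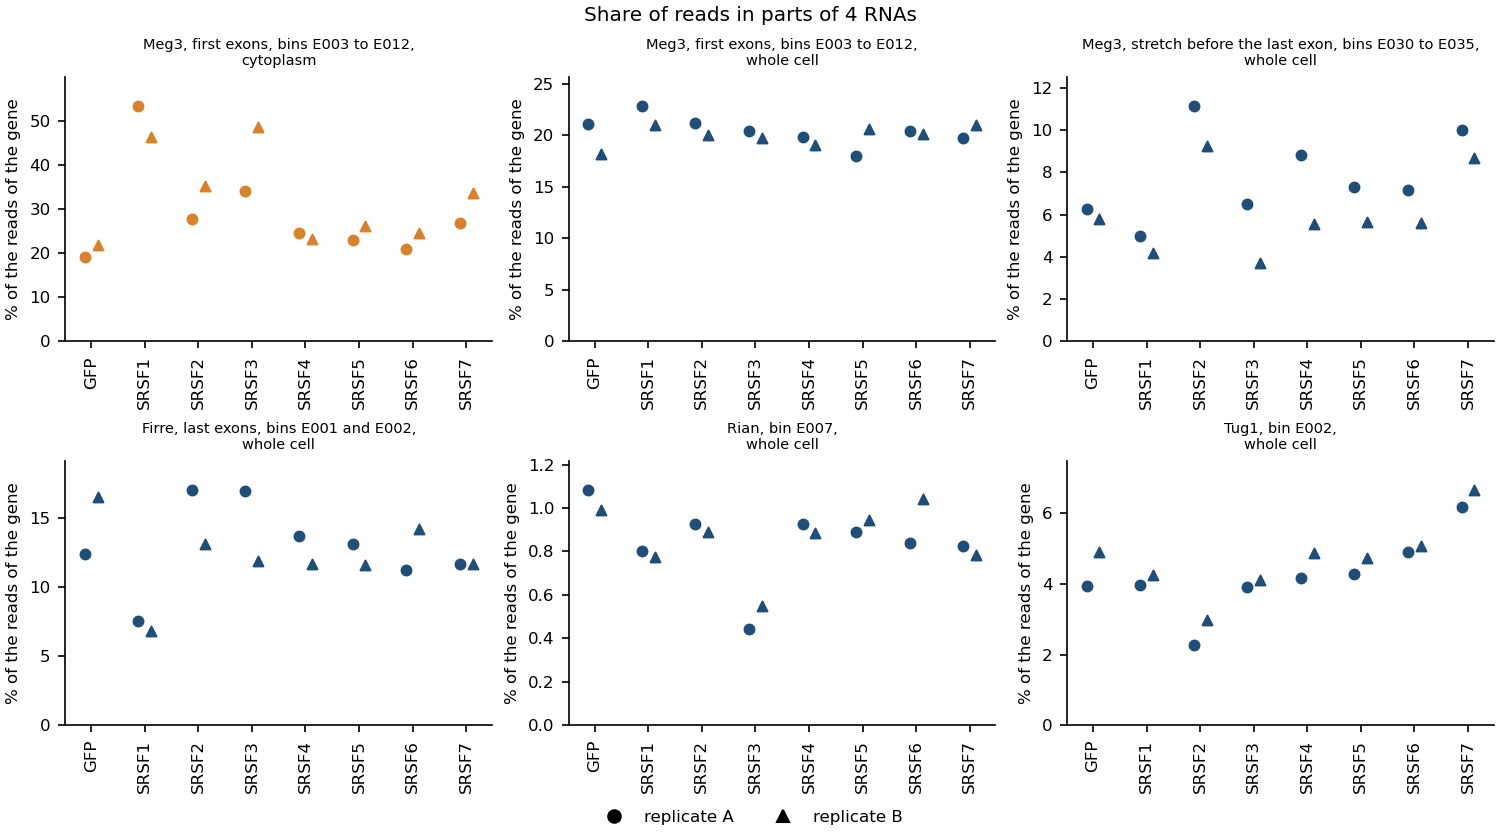
Share of the reads of a gene that fall in the named bins (vertical axis, percent of all exon-bin reads of that gene, from 0) in the GFP control and 7 knockdowns, where circles are A and triangles are B libraries, in the cytoplasm (orange) or the whole cell (blue). The first exons of *Meg3* reach 53.4% and 46.5% in the cytoplasm after SRSF1 knockdown and stay between 18% and 22.9% in the whole cell, and *Rian* E007 and the last *Firre* exons are low in the SRSF3 and SRSF1 knockdowns.

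The fractions also differed in which parts of an RNA they held, whatever the knockdown. The first 15 *Rian* bins held 11.4% to 16.1% of its reads in the whole cell but 1.67% to 5.51% in the cytoplasm, and no cytoplasmic library reached a whole-cell value. Over all libraries the cytoplasmic reads of these bins were 5.45% of the whole-cell reads, against 23.6% for bins E016 to E035. The split between E015 and E016 follows these same data. Cytoplasmic reads rose there from 4.52% of the whole-cell reads in E015 to 12.9% in E016. The contrast is therefore in part built into the grouping, and no share of other genes is given for it. *Rian* E019 (chr12:109646752-109648463) had 1670 reads over the 16 whole-cell libraries and 4 over the 16 cytoplasmic ones, or 0.24%. In *Mirg* the stretch E006 (chr12:109740578-109741503) had 1114 and 28 reads, or 2.51%, whereas the next exon, E007, had 244 and 140. The last exon of *Tug1*, E001 (chr11:3639794-3643179), held 52.4% to 63.9% of the reads in the whole cell and 61.2% to 90.6% in the cytoplasm. In the cytoplasm its share was lower in A than in B in 8 of 8 groups (median 74.1% and 82.7%), a count for which no share of all bins is given.

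*Neat1* has a short isoform and a long one, and the long isoform is needed to build paraspeckles. The 17599 bases of E001 that lie beyond the short isoform (chr19:5824708-5842306) held 3 to 17 reads per whole-cell library and 0 to 3 per cytoplasmic library. The share of the 3 long-only bins, as reads per base relative to those of the short isoform, was 1.51% in A and 1.66% in B on average in the whole cell (difference -0.16 points, SD 0.40 over 8 groups). An exact paired permutation test gave p = 0.383, two-sided, and the smallest p it could give was 0.00781. In the cytoplasm, where 2 to 8 reads lay behind each value, the shares were 1.27% and 1.30% (exact permutation p = 1). Most of these reads came from 1 bin of 166 bases inside the span of the short isoform, E008, counted as long-only. It had 910 whole-cell reads over 16 libraries against 135 in E001. That is 5.48 reads per base in E008 against 0.0077 in E001. The share of the 3 bins therefore mostly reflected E008 and cannot be read as a share of the long isoform. With bins beyond that span alone, the whole-cell shares were 0.23% in A and 0.248% in B (exact permutation p = 0.617). At this depth and in poly(A)+ RNA no difference in the long isoform was detectable. How well poly(A) selection captured the long isoform was not tested.

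The genes whose levels followed each RNA most closely were listed by Pearson's r over the 16 libraries of a fraction, as a description without a test. The libraries share groups, letters and scaling, which enter every such value. In the whole cell *Meg3* was most like *Gm26906*, a long noncoding RNA (r = 0.952), followed by *Kif5c* and *Man2b2*, and *Meg3* itself was the second most like *Rian* (0.846) after *Gm16880* (0.852). *Lemd3* was the closest to *Mirg* (0.877, ahead of *Nkx1-2* and *Ccdc106*) and came next for *Rian* (0.843). *Nav2*, *Fam196b* and *Kndc1* were most like *Miat* (0.943 to 0.946), and *Mlh3*, *D930016D06Rik* and *Fastkd2* most like *Tug1* (0.863 to 0.904). *Malat1* (*Gm20417*, *Lmntd2*, *C77080*), *Neat1* (*Gprc5c*, *Ikbkb*, *Ttc19*) and *Firre* (*Ddb1*, *Ssh1*, *Pi4ka*) had closest values of 0.813, 0.822 and 0.857.

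In the cytoplasm the closest were *mt-Rnr1*, a mitochondrial rRNA, *Mak16* and *Tcf20* for *Malat1* (0.956 to 0.959), *Nkrf*, *Tcf4* and *Cep76* for *Firre* (0.952 to 0.966) and *Srrm2*, *Pabpn1* and *Ythdf1* for *Miat* (0.914 to 0.918). *Spen*, *Pcbp2* and *Pigm* were most like *Meg3* (0.854 to 0.881), and *Tbl1x*, *Pi4k2b* and *Ppp1r2* most like *Rian* (0.913 to 0.936). *Mirg* (*Otulin*, *Atg16l1*, *Eif4e2*) and *Tug1* (*Arl1*, *Rhoq*, *4921524J17Rik*) had closest values of 0.862 and 0.890. *Neat1* had the weakest, 0.704 for *Hnrnpab*, ahead of *Gm5900* and *Naa20*.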

How the data were processed

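Gene tables (38201 genes) hold a signal per library, estimated reads that the authors scaled to a common depth. Exon-bin tables hold a signal that the authors made with DEXSeq, in which each library's reads were divided by a factor of its own, and whole reads were recovered from the steps. FPKM per group were deposited by the authors with replicates combined. The submitters' processing notes name Cufflinks 2.1.1, TopHat2 in versions 2.0.10 and 2.0.9, Bowtie2 2.1.0, cutadapt (version not given) and CASAVA 1.8.2, with mm10 and mm9 as builds. Transcript tables with fold changes and p-values of the authors' own comparisons were not used.

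Log2(value + 1) was fitted with limma 3.58.1 (TMM factors, filterByExpr, variance trend) over all libraries of a fraction, with Benjamini-Hochberg adjustment over 18540 genes in the whole cell, 17566 in the cytoplasm and 19072 in both, and genes passed below 0.05. Abundant genes listed at 0 in a library with at least 100 exon-bin reads were left out (no RNA described here). For bins (mean of 5 or more) diffSplice of limma compared each bin with the rest of its gene at 0.1, weighting values by a fitted curve of variance against level. This weighting was chosen after seeing the data. Count tests planned for the gene tables were run with edgeR 4.0.16 and DESeq2 1.42.0 on exon-bin reads instead, since the gene tables hold a scaled signal. Limma was tested on simulated data for the SRSF3 knockdown in both fractions, for the letter in the whole cell and for differences between fractions. So were edgeR and DESeq2 for that knockdown in the whole cell, and diffSplice without the block. The block was simulated with limma only, for the whole-cell knockdown and the difference between fractions. The other fits were not simulated. R 4.3.3 and Python 3.11.15 (scipy 1.17.1, pandas 2.3.3) were used.

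Differences of A and B correlated between all 28 pairs of groups (r 0.342 to 0.841 in the whole cell, 0.421 to 0.863 in the cytoplasm), so letters were taken as pairing libraries, from this check and not from the labels. The model without the letter is the main one. The 8 RNAs, the gene lists, the tests and the rule for genes named (the 8 RNAs, the 3 most correlated genes with a mean of at least 100, and at most 2 passing genes per list and comparison) were chosen with earlier results of these data known.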

Additional observations from a re-analysis of the deposited data

Results flagged for a closer look

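For 6 RNAs the difference between replicates A and B was not the same in the cytoplasm and the whole cell, as tested by the interaction of letter and fraction in limma over all genes. The difference of the log2 differences was 1.95 for *Malat1*, 1.01 for *Neat1*, 0.93 for *Firre*, 0.79 for *Meg3*, 0.67 for *Miat* and 0.31 for *Rian*, with the cytoplasm of A higher relative to the whole cell in each.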

How the results depend on the processing

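The counts of knockdown changes rested on the treatment of the replicate letter. With the replicate block, which uses the pairing of the libraries by letter, the knockdown calls numbered 5 for the whole cell, 2 for the cytoplasm and 1 for their difference, where each had been 0, and 18 exon bins were called in place of 9. Among settings added after seeing the data, DESeq2 on reads recovered from exon bins called 2 in the whole cell, edgeR on these reads with the block called 5 in the whole cell and 1 in the cytoplasm, and diffSplice without weights called 14 bins. Those 14 did not include *Meg3* E007, E008 and E009 after SRSF1 knockdown in the cytoplasm, which were called with weights. Leaving out single libraries kept the 3 knockdown counts at 0 and gave 1 to 7 called exon bins, with fewer samples in each fit. The other settings changed none of these counts by over 1.5 times. The interaction of letter and fraction was called for 6 RNAs with limma and for 5 with edgeR and with a pseudocount of 5, where *Miat* was not called (adjusted p = 0.056 and 0.0595). The A minus B value of *Mirg* was near 0 and turned sign in the whole cell with DESeq2 (0.00059) and without the SRSF3 group (0.0055), and between the fractions with edgeR (-0.0265). For the *Neat1* long share in the cytoplasm, the difference was 0.15 points with bins beyond the span of the short isoform (exact permutation p = 0.188), and no long-only bin had a mean of at least 5 there. The cause of these changes was not tested. edgeR and DESeq2 on the gene tables were not run, since these hold no whole reads. With 2 libraries per group, and 0 to 3 reads in parts of *Neat1* and *Firre* in the cytoplasm, small changes could not be detected.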
